A study of Mus musculus with 11 samples.

Results

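The amino acid carriers of 6 solute carrier families, Slc1, Slc3, Slc7, Slc36, Slc38 and Slc43, were examined in RNA from whole mouse mammary glands. Members were genes whose symbol begins with Slc1a, Slc3a, Slc7a, Slc36a, Slc38a or Slc43a and a number, and which had at least 10 estimated reads in at least 5 of the 11 libraries. The pattern matched 43 genes of the 22196 in the deposited tables, and 27 of them passed the read minimum, as did 12813 genes in all. The 27 were 4 of 7 Slc1a genes, 1 of 2 Slc3a genes, 10 of 16 Slc7a genes, 3 of 4 Slc36a genes, 6 of 11 Slc38a genes and 3 of 3 Slc43a genes. One of them, Slc7a6os, is a neighbour of Slc7a6 on the opposite strand that the pattern caught by its name, and it encodes no transporter, so that 26 members are carriers or subunits of carriers.

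The libraries came from inguinal mammary glands of 6 Knockout mice, with the genotype Tsc1-fl/fl; Adipoq-Cre-Tg/+, and 5 Wild-Type mice, with the genotype Tsc1-fl/fl; Adipoq-Cre-+/+. Both groups therefore carried the floxed Tsc1 alleles, ate normal chow and were labelled PND16.5, with glands taken 16 days after delivery. Adipoq-Cre drives recombination in adipocytes, which are 1 of many cell types in the gland, and the secretory epithelium is not its target. The comparison asks how transcripts of the whole gland differ when its adipocytes lack Tsc1, a restraint on the kinase complex mTORC1. The labels give no litters, and the p-values measure the spread between these libraries.

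Milk protein synthesis draws on amino acids that secretory epithelial cells take up from blood. Large neutral amino acids enter through a dimer of a heavy chain, Slc3a2 (CD98), which brings the partner to the membrane, and a light chain such as Slc7a5, which does the transport. Cationic amino acids enter through Slc7a1 and its relatives, small neutral ones and glutamine through Slc38 and Slc1 carriers, and some Slc36 and Slc38 proteins sit on lysosomes, where they report amino acids to mTORC1. Slc7a10 and Slc36a2 are known as surface proteins of fat cells.

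Depth was 25817975 to 37894237 estimated reads per library. Levels between libraries are given as CPM, read counts scaled to a common library size, composition included, and the genotypes were compared by edgeR's quasi-likelihood test, with p-values adjusted over the 12716 genes tested. Tsc1 itself was at 8.31 to 11.9 CPM in the Knockout group and 9.55 to 12.2 CPM in Wild-Type libraries, which overlapped. Luminal secretory markers summed to 340000 to 477000 CPM, median 449000, in the Knockout group and 422000 to 594000 CPM, median 528000, in Wild-Type libraries, which overlapped. Of these 8 markers, 6 had a lower mean in Knockout glands, with a median log2 fold change of -0.23 (4 of 8 with limma on log2 TPM), and 0 passed the adjusted threshold in edgeR or DESeq2. The one with an unadjusted p under 0.05 was Krt8, which like Krt18 had a higher mean in Knockout glands (log2 fold changes of 0.48 and 0.31). The 10 adipocyte markers were detected in all libraries and summed to 1410 to 2070 CPM in the Knockout group and 882 to 1280 CPM in Wild-Type libraries, which did not overlap. B cell markers summed to 52.7 CPM in Wild-Type 2 and 69.8 CPM in Wild-Type 5 against 0.808 to 15.8 CPM elsewhere, and skeletal muscle markers reached 2040 CPM in Knockout 1 against 1.41 to 172 CPM elsewhere. T cell and lymph node stroma markers were likewise highest in Wild-Type 5, at 28.0 and 33.1 CPM, while myoepithelial, macrophage, endothelial and fibroblast sums overlapped between the genotypes. Means were lower in Knockout glands for 4 of 4 B cell, 5 of 5 T cell and 2 of 2 lymph node stroma markers tested. Of these, 4, 1 and 1 had an unadjusted edgeR p under 0.05, against 12.4% of all genes tested. The median log2 fold changes were -2.77, -1.27 and -1.87, and none passed in edgeR or DESeq2. In whole glands, fewer cells of a type and less RNA per cell cannot be told apart.

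No member passed the adjusted threshold of 0.05 in edgeR, which 7 of all genes tested, or 0.0550%, did. An unadjusted p under 0.05 was reached by 3 of the 27 members, or 11.1%, against 12.4% of all genes tested. These 3 were Slc36a4 and Slc7a10, with higher means in Knockout glands, and Slc38a10, with a lower one. Fold changes are given as log2 of Knockout over Wild-Type. The mean was higher in Knockout glands for 12 members and lower for 15, and the median log2 fold change was -0.05, against -0.01 over all genes tested. This direction depends on the scaling. With limma on log2 TPM, 22 of 27 members were higher, but so were 84.3% of all genes, against 48.3% of all genes in edgeR. The median of all genes moved to 0.17 there, and that of the members to 0.15. The log2 fold change was under 0.25 in size for 18 members. Its 95% interval lay within 0.5 of no change for 12 members and within 1 of no change for 21. DESeq2, run as an alternative, called 1 member, Slc36a4, and 1.09% of all genes with an adjusted p-value. The unadjusted count of members rests in part on single libraries: it was 6 of 27, or 22.2%, without Wild-Type 4, where 15.2% of all genes reached it, and 2 to 4 in the other settings. Of 23 members followed through every alternative, 2, Slc36a4 and Slc7a10, kept their log2 fold change within 1.5 times throughout, and the other 21 moved further or changed sign in at least 1.

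**Figure D1:**
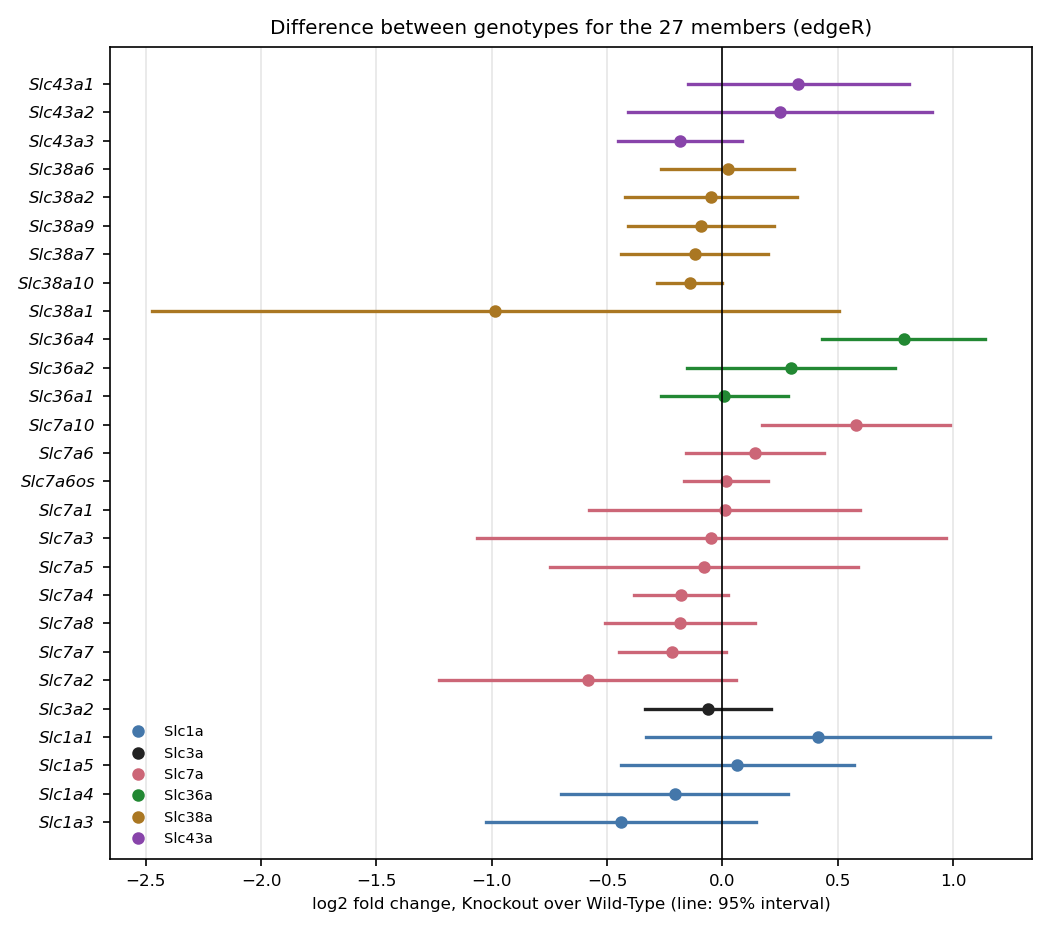
Log2 fold change of each of the 27 members, Knockout over Wild-Type (edgeR; points), with its 95% interval (lines), coloured by family. Only the intervals of Slc36a4, Slc7a10 and, by a narrow margin, Slc38a10 leave out 0, before adjustment for the number of genes, and that of Slc38a1 is the widest.

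Read by family, 3 of 3 Slc36a members and 2 of 3 Slc43a members had a higher mean in Knockout glands. The same was true of 2 of 4 Slc1a members, 4 of 10 Slc7a members and 1 of 6 Slc38a members, while the single Slc3a member was lower. None of these families held a gene called in edgeR, and DESeq2 called Slc36a4 alone, so that the counts describe the direction of means in CPM only, which the TPM scale changes as given above.

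Levels of different genes were compared by TPM, which is per transcript length. The TPM of the leading transcript, the one with the most reads, was highest for Slc3a2, at 43.9 TPM ± 10.1 (SD, n = 11), and next for Slc7a5, at 34.1 TPM ± 12.8 (SD, n = 11). Slc38a2 followed at 13.1 TPM, Slc7a4 at 9.61 TPM, Slc43a2 at 8.90 TPM, Slc1a5 at 8.62 TPM and Slc38a10 at 7.94 TPM, and the ranges of these 5 over the libraries overlap. Slc7a7 stood at 6.80 TPM and Slc1a4 at 5.10 TPM. At the other end were Slc43a1 at 0.234 TPM (0.514 TPM over all its transcripts, which share its reads and are close in length), Slc1a1 at 0.171 TPM, Slc38a1 at 0.137 TPM and Slc7a3 at 0.0696 TPM. Slc3a2 and Slc7a5 together held 49.4% of the members' CPM on average, and all members together held 0.0735% of the reads.

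**Figure D2:**
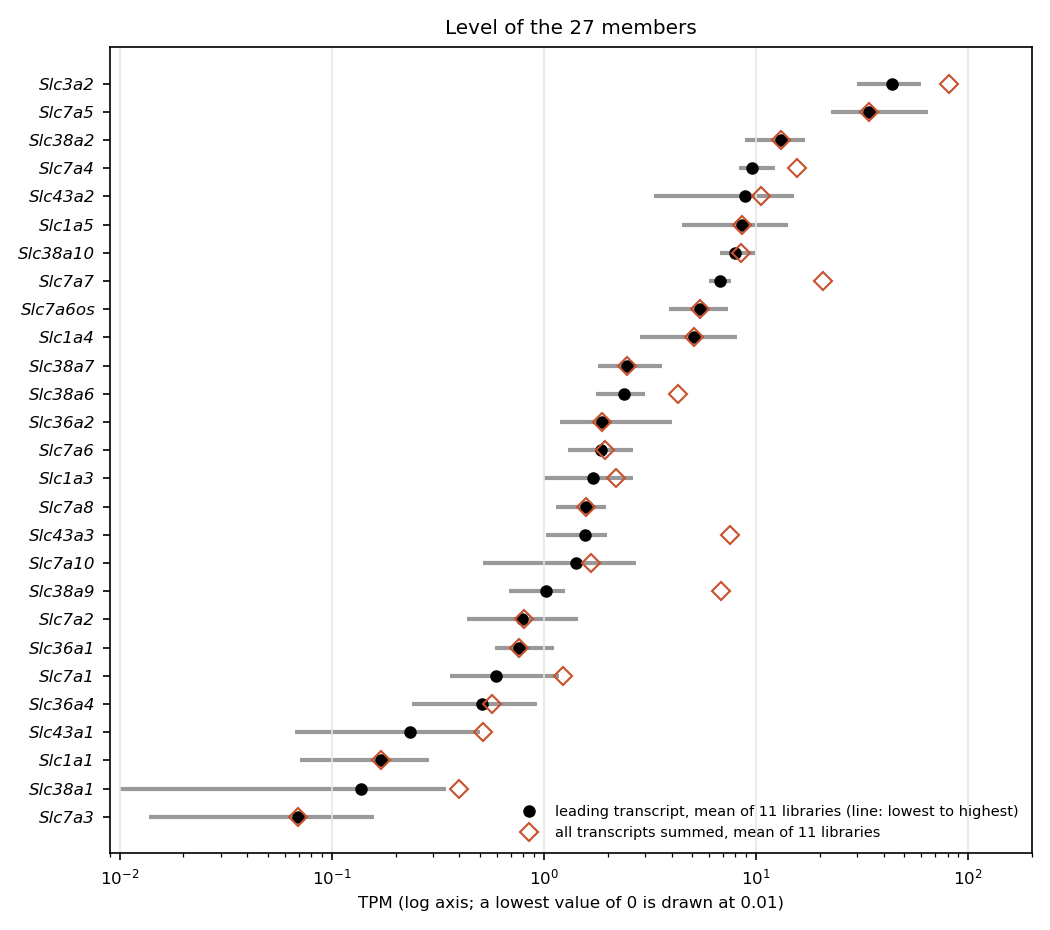
Mean TPM over 11 libraries of the leading transcript of each member (black points; grey lines run from the lowest to the highest library) and of all transcripts summed (open diamonds), on a log axis. Slc3a2 and Slc7a5 lead, and the summed value lies far to the right of the leading transcript for Slc38a9, Slc43a3 and Slc7a7.

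Short annotated fragments raised some summed levels. Slc38a9 summed to 6.82 TPM, but its full transcript Slc38a9-201 held 99.5% of the reads and only 1.03 TPM. The rest came from Slc38a9-202, a coding fragment of 129 bases of the type degraded by nonsense-mediated decay, to which 3 reads in Knockout 1 gave 31.4 TPM. This fragment had 1 read each in Knockout 6, Wild-Type 1 and Wild-Type 4, which gave 10.6, 10.2 and 11.5 TPM, and 0 reads in the other 7 libraries. Its coding sequence is printed because the whole gap rests on reads placed in it, with the last 19 bases, absent from Slc38a9-201, in capitals (GRCm38, 2 exons within chr13:112669622-112684080, plus strand).
Slc38a9-202: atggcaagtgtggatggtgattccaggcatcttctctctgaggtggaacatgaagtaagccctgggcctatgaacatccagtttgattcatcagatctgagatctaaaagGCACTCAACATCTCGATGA
Slc7a7 summed to 20.8 TPM, of which a fragment of 178 bases, Slc7a7-204, gave 13.6 TPM from 8.70 to 25.3 reads. Slc43a3 summed to 7.53 TPM, of which a fragment of 149 bases, Slc43a3-202, gave 5.18 TPM from 0.992 to 4.89 reads. For these 3 genes the leading transcript is the level used here.

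Gene positions are those of GRCm38 in GENCODE M21. Slc3a2 (ENSMUSG00000010095, chromosome 19, 8706882 to 8723369, minus strand), the heavy chain, had the most reads of any member, 5428 to 10591 per library. It ranged from 202 to 265 CPM in Knockout libraries, with a median of 242 CPM. The Wild-Type libraries 1 to 5 held 317, 229, 222, 293 and 191 CPM. Wild-Type libraries lay on both sides of all Knockout libraries. In edgeR this made a log2 fold change of -0.06, SE 0.13 (adjusted p = 0.870), with a 95% interval from -0.34 to 0.21, and over the 20 alternatives it ran from -0.15 to 0.14.

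Slc7a5 (ENSMUSG00000040010, chromosome 8, 121881150 to 121907694, minus strand) is the light chain that carries leucine and other large neutral amino acids. It ranged from 85.4 to 226 CPM in Knockout libraries, with a median of 98.0 CPM. The Wild-Type libraries 1 to 5 held 215, 105, 106, 117 and 83.3 CPM. One library of each genotype, Knockout 5 and Wild-Type 1, stood far above the rest, and the other 9 libraries of both genotypes overlapped. As a log2 fold change this was -0.08, SE 0.30, with an edgeR adjusted p of 0.937, and without those 2 libraries it was -0.08 (edgeR adjusted p = 0.801). Leaving out Wild-Type 1 alone turned it to 0.20, so its direction rests on single libraries.

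The light chains known to pair with Slc3a2 that passed the read minimum, namely Slc7a5, Slc7a6, Slc7a7, Slc7a8 and Slc7a10, were set beside it on the TPM scale. By leading transcript, Slc7a5 gave 67.5% to 84.9% of their summed TPM, with means of 72.9% ± 5.91 (SD, n = 6) in the Knockout group and 73.5% ± 6.16 (SD, n = 5) in the Wild-Type group. Slc7a7 was next and gave 8.43% to 21.3%. The leading transcripts of the light chains summed to 0.449 to 0.706 of the TPM of Slc3a2 over all its transcripts in 10 libraries and to 0.931 in Knockout 5. The reads of Slc3a2 were divided mainly between Slc3a2-201, with 67.5%, Slc3a2-202, with 16.4%, and Slc3a2-207, with 15.6%. By Slc3a2-201 alone, the light chains summed to more than the heavy chain in 6 of 11 libraries, Knockout 4 and 5 and Wild-Type 1, 2, 3 and 5, with the leading transcript taken on both sides. With all transcripts on both sides they did so in 1, Knockout 5, at 84.7 against 81.7 TPM. The order of heavy and light chains thus depends on which transcripts are counted.

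**Figure D3:**
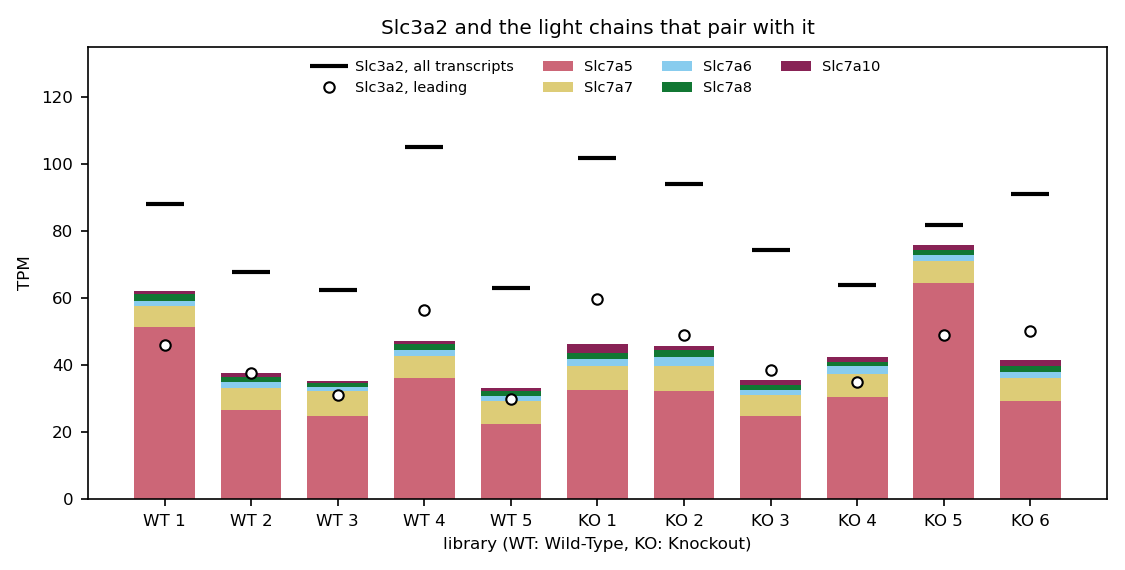
TPM of the leading transcript of 5 light chains (stacked bars) in each library, with the TPM of their heavy chain Slc3a2 over all transcripts (black dashes) and in its leading transcript (open circles). Slc7a5 makes up most of every bar, and the bars of Knockout 5 and Wild-Type 1 are the tallest, at 76.0 and 62.3 TPM.

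None of the remaining carriers of large neutral amino acids passed the threshold. Slc7a8, a light chain of broader range, ranged from 4.51 to 6.205 CPM in Knockout libraries, with a median of 5.85 CPM, and was at 8.69, 7.02, 5.21, 5.77 and 5.09 CPM in the Wild-Type libraries 1 to 5. The groups overlapped except for the 2 highest libraries, both Wild-Type, and the log2 fold change was -0.18, SE 0.15 (adjusted p = 0.643 in edgeR). Without Wild-Type 1 it was -0.045, and with limma on log2 TPM 0.048. Slc43a2, a facilitated carrier that needs no heavy chain, ranged from 28.5 to 52.5 CPM in Knockout libraries, with a median of 38.3 CPM, and was at 38.6, 15.5, 30.6, 57.3 and 21.9 CPM in the Wild-Type libraries. Both the highest and the 2 lowest libraries were Wild-Type (a log2 fold change of 0.25, SE 0.30, with an edgeR adjusted p of 0.769). Of the 31-base words of Slc43a2, 7.75% also occur in Gm45606, which overlaps it on the opposite strand. The log2 fold change of Slc43a2 rests on single libraries, at 0.072 without Wild-Type 2, 0.13 without Wild-Type 5 and 0.55 without Wild-Type 4. Slc43a1, its relative, was at 1.501 to 2.97 CPM in Knockout libraries, with a median of 2.30 CPM, and at 2.07, 2.42, 1.10, 1.91 and 1.72 CPM in the Wild-Type libraries. These overlapped too, with a log2 fold change of 0.33, SE 0.22, with an edgeR adjusted p of 0.569, and a log2 fold change of 0.19 without Wild-Type 3. Slc43a3, the family member known as a carrier of purine bases and not of amino acids, had a log2 fold change of -0.18, SE 0.12, with an edgeR adjusted p of 0.571. The log2 value turned to 0.18 with the transcript length offset and to 0.37 with limma on log2 TPM, and was -0.11 without Wild-Type 2 and -0.12 without Knockout 3.

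Slc7a7 and Slc7a6, the light chains that export cationic amino acids in exchange for neutral ones, had means on opposite sides. Slc7a7 ranged from 19.3 to 25.8 CPM in Knockout libraries, with a median of 23.9 CPM. The Wild-Type libraries 1 to 5 held 26.5, 28.2, 34.0, 22.2 and 26.4 CPM. Only Wild-Type 4 fell within the Knockout range, and the other 4 Wild-Type libraries lay above it. By edgeR the log2 fold change came to -0.22, SE 0.11 (adjusted p = 0.431), and without Wild-Type 3 to -0.13, while limma on log2 TPM gave -0.0055. Slc7a6 had a log2 fold change of 0.14, SE 0.14, with an edgeR adjusted p of 0.709 (a log2 fold change of 0.049 without Knockout 4), and its neighbour Slc7a6os one of 0.02, SE 0.08 (adjusted p = 0.957 in edgeR). Neither kept its direction over the 20 alternatives, with ranges of -0.0097 to 0.199 and -0.023 to 0.23.

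Slc7a10 (ENSMUSG00000030495, chromosome 7, 35186385 to 35201114, plus strand), a light chain for small neutral amino acids such as serine, was the member with the second smallest p. It ranged from 4.98 to 7.79 CPM in Knockout libraries, with a median of 6.30 CPM. The Wild-Type libraries 1 to 5 held 5.32, 5.60, 2.80, 3.10 and 4.63 CPM. The 5 highest libraries were Knockout, and Knockout 2 lay among the Wild-Type libraries. In edgeR this made a log2 fold change of 0.58, SE 0.19 (adjusted p = 0.286), with a 95% interval from 0.17 to 0.99. Of its 31-base words, 7.0% also occur in Lrp3, which overlaps it on the opposite strand. The adipocyte markers had means in the same direction: 9 of 10 were higher in Knockout glands. Of the 10, 0 passed the adjusted threshold in edgeR, 6 had an unadjusted p under 0.05, against 12.4% of all genes, and 3 passed in DESeq2 (Adipoq, Cfd and Fabp4), against 1.09% of all genes, with edgeR log2 fold changes of 0.78, SE 0.18, for Cfd (adjusted p = 0.218 in edgeR) and 0.35, SE 0.10, for Fabp4 (adjusted p = 0.255 in edgeR). Means were also higher in Knockout glands for 5 of 5 fibroblast markers and 6 of 6 myoepithelial and smooth muscle markers, each with 2 at an unadjusted p under 0.05, and for 6 of 6 skeletal muscle markers, with 0, and none of these passed in edgeR or DESeq2. The part of these cell types in the value of Slc7a10 was not tested.

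The leading transcripts of Slc7a1, Slc7a2 and Slc7a3, carriers of cationic amino acids, each had a mean below 1 TPM. Slc7a1, the widespread arginine and lysine carrier, ranged from 1.80 to 5.47 CPM in Knockout libraries, with a median of 2.39 CPM, and was at 3.54, 2.84, 2.70, 2.43 and 2.53 CPM in the Wild-Type libraries 1 to 5. Knockout 5 was again the highest library, and 3 Knockout libraries were the lowest. As a log2 fold change this was 0.01, SE 0.27, with an edgeR adjusted p of 0.994, and without Knockout 5 it was -0.28.

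Slc7a2, an arginine carrier of lower affinity, ranged from 1.99 to 4.21 CPM in Knockout libraries, with a median of 3.38 CPM, and was at 4.87, 3.26, 8.67, 2.40 and 5.51 CPM in the Wild-Type libraries. The 3 highest libraries were Wild-Type, and the others overlapped (a log2 fold change of -0.58, SE 0.30, with an edgeR adjusted p of 0.447). Without Wild-Type 3 the log2 fold change was nearer to 0, at -0.28, as it was with limma on log2 TPM, at -0.16, and with the replicate block, at -0.35. Slc7a3 had only 2 to 24 reads per library, and a 95% interval from -1.06 to 0.97 on its log2 fold change.

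Slc7a4, a relative of these carriers in sequence for which transport is not settled, was the fourth highest member by leading transcript. It ranged from 41.8 to 64.2 CPM in Knockout libraries, with a median of 53.5 CPM, and was at 62.3, 60.5, 57.4, 62.0 and 55.7 CPM in the Wild-Type libraries. The Wild-Type values were close together, at 59.6 CPM ± 2.91 (SD, n = 5), and 5 of 6 Knockout libraries lay below all of them. The sixth, Knockout 4, was the highest of all. By edgeR the log2 fold change came to -0.18, SE 0.09 (adjusted p = 0.468), and without Knockout 1 to -0.11, while limma on log2 TPM gave 0.12. Of its 31-base words, 6.34% also occur in P2rx6, which overlaps it on the opposite strand.

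Among the Slc1 carriers, Slc1a5 is known as an exchanger of glutamine and other neutral amino acids. It ranged from 18.1 to 45.1 CPM in Knockout libraries, with a median of 35.1 CPM, and was at 35.3, 45.2, 21.9, 34.0 and 28.5 CPM in the Wild-Type libraries 1 to 5. The groups covered the same range, and Knockout 5, which was highest for Slc7a5, was the lowest here (a log2 fold change of 0.06, SE 0.23, with an edgeR adjusted p of 0.935, and -0.052 to 0.26 over the alternatives). Slc1a4, the exchanger of alanine, serine and cysteine, ranged from 10.2 to 26.9 CPM in Knockout libraries, with a median of 17.1 CPM, and was at 17.97, 21.4, 29.2, 16.8 and 19.1 CPM in the Wild-Type libraries. These overlapped (a log2 fold change of -0.21, SE 0.23, with an edgeR adjusted p of 0.745). This value too rests on single libraries, at -0.055 without Wild-Type 3, -0.078 without Knockout 6 and -0.35 without Knockout 2, and it was -0.0041 with limma on log2 TPM.

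The glutamate carriers were weaker. Slc1a3 ranged from 3.73 to 7.75 CPM in Knockout libraries, with a median of 6.12 CPM, and was at 6.72, 9.23, 12.3, 3.74 and 7.72 CPM in the Wild-Type libraries. Only Wild-Type 2 and 3 stood above the Knockout range (a log2 fold change of -0.44, SE 0.27, with an edgeR adjusted p of 0.527). Without Wild-Type 3 the difference was -0.23, with the transcript length offset -0.25 and with limma on log2 TPM -0.010. Slc1a1 had 8 to 34 reads per library and a log2 fold change of 0.41, SE 0.34, with an edgeR adjusted p of 0.649. The log2 value ran from 0.25 without Knockout 3 to 0.67 without Wild-Type 3, and was 0.16 with limma on log2 TPM. Of the 31-base words of Slc1a1, 75.7% also occur in 4430402I18Rik, which overlaps it on the opposite strand. The libraries were strand-specific, and whether reads were misplaced between these genes was not tested.

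Among the Slc38 carriers, Slc38a2 is known as the sodium-coupled importer of small neutral amino acids that rises when amino acids are short. It ranged from 31.2 to 53.1 CPM in Knockout libraries, with a median of 43.9 CPM, and was at 36.7, 42.3, 67.2, 38.3 and 37.98 CPM in the Wild-Type libraries 1 to 5. Wild-Type 3 was the highest library, and the others overlapped. In edgeR this made a log2 fold change of -0.05, SE 0.17 (adjusted p = 0.933), and without Wild-Type 3 it was 0.15.

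Slc38a1, the close relative of Slc38a2, had 0 to 35 reads per library. It ranged from 0 to 0.644 CPM in Knockout libraries, with a median of 0.370 CPM, and was at 0.280, 1.46, 0.188, 0.425 and 1.05 CPM in the Wild-Type libraries. The 2 highest, Wild-Type 2 and Wild-Type 5, are also those with the highest B cell and T cell marker sums, and the other libraries of both genotypes overlapped. As a log2 fold change this was -0.99, SE 0.68, with an edgeR adjusted p of 0.579. With a transcript length offset it was -2.39 (adjusted p = 0.406 in edgeR). That offset draws on the TPM of all transcripts, which averaged 0.398 TPM against 0.137 TPM for the leading one. The excess lay in Knockout 1 and Wild-Type 2, 4 and 5 only, and its part in the offset value was not tested. Leaving out single libraries moved the log2 fold change from -1.31 to -0.52, the latter without Wild-Type 2. The part of the lymphocyte markers in this value was not tested.

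Slc38a10 (ENSMUSG00000061306, chromosome 11, 120103960 to 120151346, minus strand), whose transport role is less well established, varied least of the carriers, with a coefficient of variation of 7.49% over all libraries. It ranged from 68.0 to 78.5 CPM in Knockout libraries, with a median of 69.97 CPM, and was at 82.1, 84.3, 79.2, 73.6 and 76.3 CPM in the Wild-Type libraries. The 3 highest libraries were Wild-Type and the 4 lowest Knockout. By edgeR the log2 fold change came to -0.14, SE 0.06 (adjusted p = 0.403). It turned to 0.094 with limma on log2 TPM, and the unadjusted p was under 0.05 in 5 of 20 alternatives, against 20 of 20 for Slc36a4 and for Slc7a10.

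The Slc38 members known from lysosomes had no call. Slc38a9, which senses arginine in the lysosome for mTORC1, ranged from 2.84 to 4.36 CPM in Knockout libraries, with a median of 3.15 CPM, and was at 2.77, 3.84, 3.46, 3.61 and 4.35 CPM in the Wild-Type libraries. The groups covered the same range (a log2 fold change of -0.09, SE 0.15, with an edgeR adjusted p of 0.832), and its direction turned to 0.18 with the transcript length offset and to 0.063 with limma on log2 TPM, while leaving out single libraries gave -0.18 to -0.016. Slc38a7, a lysosomal glutamine exporter, had a log2 fold change of -0.12, SE 0.15, with an edgeR adjusted p of 0.774, and Slc38a6 one of 0.02, SE 0.13 (adjusted p = 0.963 in edgeR). Over the 20 alternatives these ran from -0.21 to 0.093 and from -0.016 to 0.44, the highest of each with limma on log2 TPM, so that neither kept its direction.

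Slc36a4 (ENSMUSG00000043885, chromosome 9, 15709738 to 15743361, plus strand) belongs to the Slc36 family and is known for its high affinity for proline and tryptophan. It ranged from 1.84 to 2.47 CPM in Knockout libraries, with a median of 2.16 CPM. The Wild-Type libraries 1 to 5 held 1.54, 0.919, 1.16, 1.43 and 1.16 CPM. Every Knockout library lay above every Wild-Type library, which was so for 1 of 27 members, or 3.7%, and for 0.786% of all genes tested. Counting both directions, 1.32% of all genes did not overlap. In edgeR this made a log2 fold change of 0.79, SE 0.16 (adjusted p = 0.137), with a 95% interval from 0.43 to 1.14. It was the 31st smallest p of all genes tested.

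The values of Slc36a4 rest on 22 to 108 reads per library. Its leading transcript Slc36a4-201 held 96.7% of them, and none of its 31-base words occurs in another gene. Leaving out each library in turn gave log2 fold changes from 0.70 to 0.87, with adjusted p-values from 0.103 to 0.320 in edgeR. DESeq2 gave 0.79 with an adjusted p of 0.00871, so that the call depends on the test. The adipocyte marker sums also did not overlap between genotypes, and their part in the value of Slc36a4, and that of the other marker lists with higher means given above, was not tested.

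**Figure D4:**
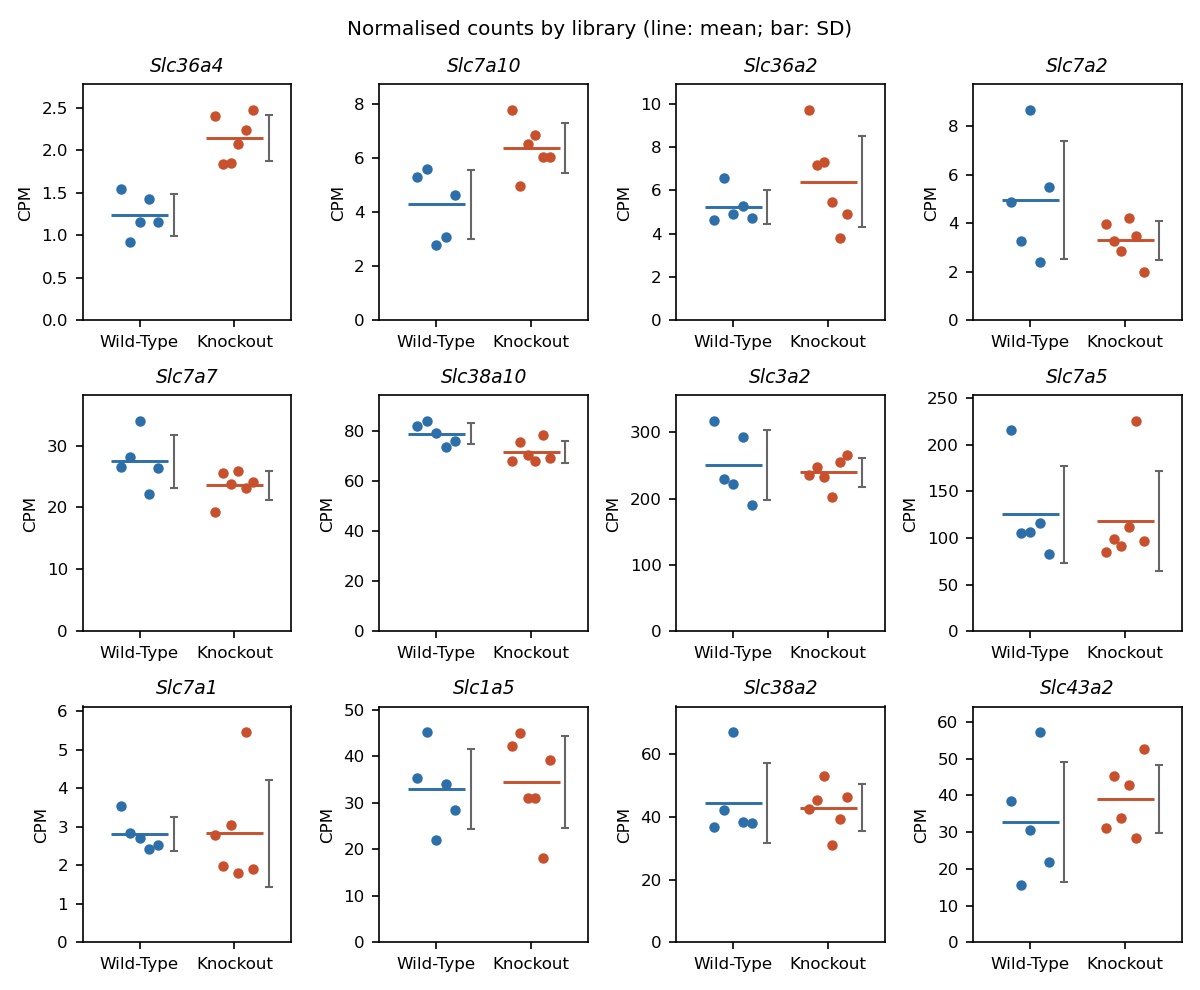
CPM of 12 members in each library (points), with the group mean (horizontal line) and SD (grey bar), each axis starting at 0. Slc36a4 is the panel in which the genotypes do not overlap, and in the panel of Slc7a5 one library of each genotype lies far above the others.

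The other Slc36 members overlapped between the genotypes. Slc36a2, the fat cell surface carrier, ranged from 3.82 to 9.73 CPM in Knockout libraries, with a median of 6.33 CPM, and was at 4.66, 6.56, 4.93, 5.28 and 4.74 CPM in the Wild-Type libraries 1 to 5. The 3 highest libraries were Knockout 1, 2 and 3, and Knockout 5 was the lowest of all. As a log2 fold change this was 0.30, SE 0.21, with an edgeR adjusted p of 0.584. Without Knockout 1 it was 0.14. That library also held the highest adipocyte and skeletal muscle marker sums, 2070 and 2040 CPM, whose part in the value was not tested. Slc36a1, the lysosomal carrier that is known to act with mTORC1, ranged from 2.08 to 2.71 CPM in Knockout libraries, with a median of 2.55 CPM, and was at 2.31, 2.92, 2.48, 2.64 and 2.04 CPM in the Wild-Type libraries. These covered the same range (a log2 fold change of 0.01, SE 0.13, with an edgeR adjusted p of 0.988, and -0.056 to 0.15 over the alternatives). Slc36a1 and Slc36a2 lie 19.3 kb apart and share 10.1% and 9.24% of their 31-base words, so that a few reads of each could be placed in the other.

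For 3 members, at least 2 transcripts each held 10% or more of the reads, and the share of the leading transcript was compared. Of the 2948 genes tested this way, 6.89% had an unadjusted exact p under 0.05, and 0.00% passed after adjustment. The smallest p that the 462 splits of this exact test allow is 0.00216. A gene could therefore pass after adjustment only if many others reached that p too, so that the adjusted values decide little. Slc3a2-201 held 68.4% ± 2.94 (SD, n = 6) of the reads of Slc3a2 in the Knockout group and 66.1% ± 2.76 (SD, n = 5) in the Wild-Type group (exact permutation test, two-sided, p = 0.227, adjusted p = 0.858). Slc7a4-202 held 81.5% ± 2.28 (SD, n = 6) of the reads of Slc7a4 in the Knockout group and 85.5% ± 2.13 (SD, n = 5) in the Wild-Type group (exact permutation test, two-sided, p = 0.0216, adjusted p = 0.648).

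Slc43a1 showed the widest spread. Slc43a1-201 was given 13.0% to 57.7% of the gene's reads in Knockout libraries, with a median of 28.5%. In the Wild-Type libraries 1 to 5 it was given 100%, 100%, 100%, 52.3% and 28.7%. Only 3 Wild-Type libraries had all reads in this transcript, and the other 2 lay within the Knockout range. The means were 31.8% ± 17.2 (SD, n = 6) and 76.2% ± 33.6 (SD, n = 5; exact permutation test, two-sided, p = 0.0238, adjusted p = 0.648). The gene had 35 to 129 reads per library, so that the division rests on few reads, and without Knockout 2, 3 or 5 the unadjusted exact p was 0.0556.

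The 3 transcripts of Slc43a1 with reads differ only at their 5′ ends, and the stretches that tell them apart are printed for that reason. Slc43a1-201 begins with 116 coding bases that Slc43a1-203 lacks (GRCm38, chr2:84839566-84839681, plus strand), and Slc43a1-203 begins with 65 of its own (chr2:84840774-84840838, plus strand). Slc43a1-204 has no bases of its own, since its coding sequence lies wholly within Slc43a1-201. The start codon of each is in capitals.
Slc43a1-201: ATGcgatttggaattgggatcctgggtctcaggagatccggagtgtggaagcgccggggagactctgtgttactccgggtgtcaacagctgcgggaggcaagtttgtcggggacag
Slc43a1-203: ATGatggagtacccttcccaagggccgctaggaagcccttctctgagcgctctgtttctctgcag

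**Figure D5:**
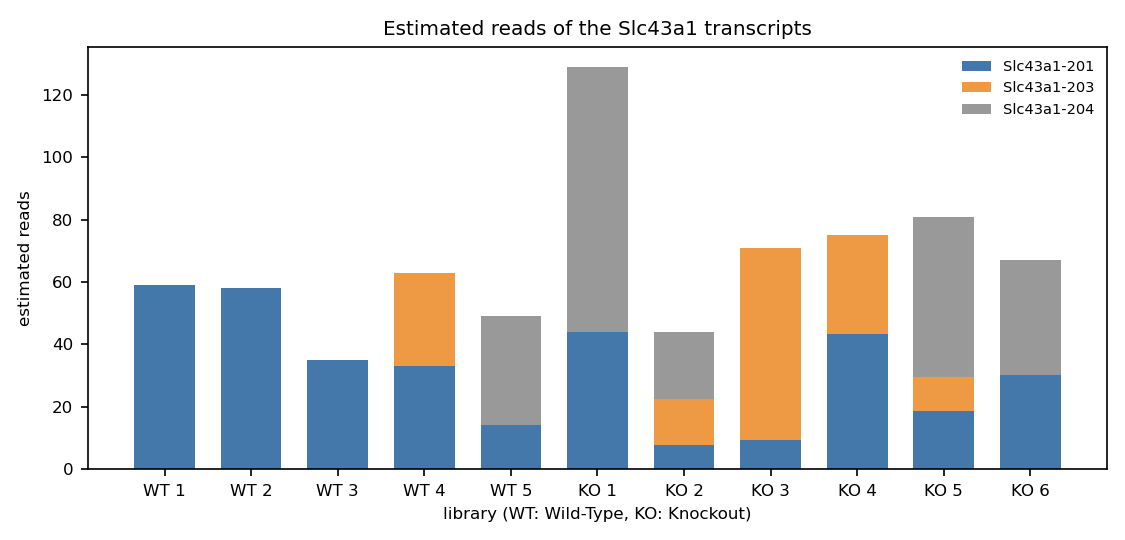
Estimated reads of Slc43a1 in each library, divided between its 3 transcripts with reads (stacked bars). Wild-Type 1, 2 and 3 have only Slc43a1-201, at 59.0, 58.0 and 35.0 reads, while Knockout 1 has 84.9 reads in Slc43a1-204 and Knockout 3 has 61.8 in Slc43a1-203.

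Many genes that cells switch on when amino acids are short, some of these carriers among them, are known to carry the letters TGATGNAA, part of the element bound by Atf4. Both strands of RefSeq promoter windows (GRCm38.p6, 250 bases before to 50 after the start) were searched for them. They occurred in 2 of the 19 members with a window, or 10.5%, against 4.51% of the 27025 genes in the table and 3.97% of the 32851 windows. The 2 were Slc1a4 and Slc7a7, whose matches are printed with the letters in capitals. That of Slc1a4 reads on the opposite strand from 4 bases before the start (chr11:20332699-20332728, minus strand), and those of Slc7a7 begin 141 bases and 1 base before it (chr14:54418067-54418096 and chr14:54417927-54417956, minus strand).
Slc1a4: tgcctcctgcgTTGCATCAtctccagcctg
Slc7a7, upstream: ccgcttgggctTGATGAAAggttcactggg
Slc7a7, at the start: gacctagaagcTGATGCAAcagcttccccg
A match is a description of the letters and not a site, and neither Slc1a4 nor Slc7a7 passed the adjusted threshold.

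The other 16 genes of the pattern were below the read minimum and were not tested. Of these, 12 had at most 3 reads in every library. Slc7a9, Slc7a14 and Slc7a15 had 0 reads in all libraries, which allows up to 3 reads, or 0.0668 to 0.125 CPM, per library by counting error alone. Slc1a2, the main glutamate carrier of astrocytes, had 0 or 1 read per library.

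Slc7a11, the cystine and glutamate exchanger that also pairs with Slc3a2, had 2 to 9 reads per library. Slc3a1, the second heavy chain, had 0 to 19 reads, and its light chain Slc7a9 none. Slc38a3 had 30 reads and Slc38a4 36 reads in Knockout 1, against at most 17 and 6 elsewhere. Knockout 1 is also the library with the highest sum of skeletal muscle markers, whose part in these reads was not tested.

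Several members lie next to each other, and neighbours did not share a level. Slc38a1 and Slc38a2 are 44.5 kb apart on chromosome 15 and stood at 0.137 and 13.1 TPM in their leading transcripts. Slc43a1 and Slc43a3 are 73.0 kb apart on chromosome 2, at 0.234 and 1.56 TPM in their leading transcripts. Slc7a6 and Slc7a6os are 2.01 kb apart on chromosome 8, at 1.86 and 5.44 TPM.

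Other genes of amino acid handling were read from lists of known roles. Of 13 further carriers of the plasma membrane, 5 were tested, 2 with a higher and 3 with a lower mean in Knockout glands, and 0 passed the adjusted threshold in edgeR (1 had an unadjusted p under 0.05, which 12.4% of all genes had). In this list and in the next 3, DESeq2 called 0 genes. The smallest p belonged to Slc16a10, an aromatic amino acid carrier, with a log2 fold change of 0.74, SE 0.32, with an edgeR adjusted p of 0.379, and Slc6a6, the taurine carrier, followed with 0.40, SE 0.23 (adjusted p = 0.511 in edgeR). Of 16 lysosomal and mitochondrial carriers, 13 were tested, 8 higher and 5 lower, and 0 passed (1 with an unadjusted p under 0.05, against 12.4% of all genes). They included Mfsd12, the lysosomal cysteine importer, at 0.30, SE 0.12 (adjusted p = 0.359 in edgeR), and Slc25a39, a mitochondrial glutathione carrier, at -0.11, SE 0.08 (adjusted p = 0.609 in edgeR).

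Of 28 genes that sense amino acids for mTORC1 or the integrated stress response, 27 were tested, 9 higher and 18 lower, and 0 passed (2 with an unadjusted p under 0.05, against 12.4% of all genes). Lamtor2, a subunit of the lysosomal anchor of mTORC1, had a log2 fold change of -0.31, SE 0.10, with an edgeR adjusted p of 0.282, and Wdr24, of a complex that promotes its activation, one of -0.20, SE 0.09 (adjusted p = 0.396 in edgeR). Of 26 genes of amino acid synthesis and breakdown, 25 were tested, 9 higher and 16 lower, and 0 passed (6 with an unadjusted p under 0.05, against 12.4% of all genes). Glul, which makes glutamine, had a log2 fold change of -0.34, SE 0.13, with an edgeR adjusted p of 0.350, and Pycr1, which makes proline, one of -0.58, SE 0.24 (adjusted p = 0.370 in edgeR). The medians of the 4 lists, in the order given, were -0.03, 0.02, -0.06 and -0.10, against -0.01 over all genes tested. These directions depend on the scaling. With limma on log2 TPM, 5 of 5, 11 of 13, 23 of 27 and 19 of 25 genes were higher in Knockout glands, as were 84.3% of all genes. The medians of the lists were then 0.22, 0.23, 0.14 and 0.13, against 0.17 over all genes. With the transcript length offset, 4 of the 5 plasma membrane carriers were higher.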

How the data were processed

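Total RNA of inguinal mammary glands was sequenced from 11 libraries of strand-specific type, grouped by their titles. Per the submitters' processing notes, Salmon 1.3.0, DESeq2 1.28.1 and GRCm38.p6 were used, and the index was not given in the sources used here. The deposited tables give, per the file headers, the estimated count, the TPM and the effective length in bases of each of 58204 transcripts. Listed lengths of all 86 member transcripts are within 3 bases of the coding length, so that untranslated regions were not counted.

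Transcripts were assigned to genes by GENCODE M21, which held 57452 of them. The 752 others carried 0.195% to 0.265% of the reads and were left out. The counts of a gene's transcripts were added up and rounded to whole numbers. Genes passing filterByExpr were tested with edgeR 4.0.16 (R 4.3.3; TMM, quasi-likelihood, robust, genotype only, Benjamini-Hochberg over 12716 genes). On simulated data for this comparison over 12716 genes, 89% of genes changed 4-fold and 78% of those changed 2-fold were recovered, with 10 false calls. Transcript shares were compared by exact permutation over 462 splits, adjusted over all 2948 genes tested and not, as first planned, over the members alone. Alternatives used DESeq2 1.42.0, limma 3.58.1 on log2(TPM + 0.5), other scalings and filters, a transcript length offset, a replicate block (10 libraries, without Knockout 6) and leaving out each library. Words of 31 bases were compared between genes. Intervals and limits cover counting or sampling error only, and reads are not independent molecules.

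Named genes were the 6 members with the smallest p in each direction, the highest of each family and members of known role, plus the 2 smallest p of each other list. Members not covered by that rule were named after their values were seen. The members and lists were chosen with earlier results of these data known. Protein sequences were not analysed here.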

Additional observations from a re-analysis of the deposited data

Results flagged for a closer look

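Of 54 sets of values by gene and genotype, 5 held a library far from the others of its group by Dixon's test, where chance alone gives 2.7. Slc7a5 was at 226 CPM in Knockout 5 against 85.4 to 112 CPM in the other Knockout libraries. It was at 215 CPM in Wild-Type 1 against 83.3 to 117 CPM in the other Wild-Type libraries. Slc7a1 was at 5.47 CPM in Knockout 5 against 1.80 to 3.04 CPM in the others. Slc38a6 was at 8.69 CPM in Wild-Type 1 against 6.06 to 6.59 CPM, and Slc38a2 at 67.2 CPM in Wild-Type 3 against 36.7 to 42.3 CPM.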

How the results depend on the processing

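Over all genes tested the count past the threshold was 7, and it moved to 146 with DESeq2, 3 with limma on log2 TPM, 0 with the replicate block, 0 without Knockout 5 and Wild-Type 1 (an alternative chosen after seeing the data), and 0 to 28 when single libraries were left out: 0 without Knockout 3 or Knockout 6 and 28 without Knockout 2. The block was fitted to 10 libraries, without Knockout 6, which has no Wild-Type library of its number, and leaving out Knockout 6 alone also gave 0. Members past the threshold stayed at 0 in these settings except DESeq2, with 1, Slc36a4 at 0.79; leaving out single libraries gave 0 to 0. The replicate block on these 10 libraries gave Slc36a4 0.76 (edgeR adjusted p = 0.529), and the same libraries without the block 0.75 (edgeR adjusted p = 0.285). The labels do not say whether a replicate number marks a shared litter or day. Over genes, the deviations of same-numbered libraries from their group means correlated at -0.0228, -0.0963, 0.187, -0.223 and -0.207, which cannot settle it. The share of Slc43a1-201 ran from -56.3 to -38.5 percentage points when single libraries were left out, with an unadjusted exact p of 0.0556 without Knockout 2, 3 or 5.

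Of 23 named members, 11 kept their direction in all 7 alternatives with all libraries, the replicate block, all 11 with 1 left out and the one without Knockout 5 and Wild-Type 1. Log2 fold changes that turned sign, by setting, were as follows. With limma on log2 TPM, which moved the median of all genes to 0.17, they were 0.094 for Slc38a10, 0.19 for Slc38a2, 0.063 for Slc38a9, 0.14 for Slc3a2, 0.37 for Slc43a3, 0.12 for Slc7a4, 0.14 for Slc7a5 and 0.048 for Slc7a8. In that setting 22 of 27 members had a higher value in Knockout glands, as did 84.3% of all genes. With the transcript length offset they were 0.18 for Slc38a9, 0.18 for Slc43a3 and -0.0097 for Slc7a6. With the replicate block Slc36a1 was at -0.0051. Without Knockout 5 and Wild-Type 1 they were -0.014 for Slc36a1, 0.026 for Slc3a2 and -0.18 for Slc7a1. Leaving out single libraries gave -0.052 to 0.20 for Slc1a5, -0.056 to 0.071 for Slc36a1, -0.12 to 0.15 for Slc38a2, -0.15 to 0.037 for Slc3a2, -0.28 to 0.11 for Slc7a1 and -0.37 to 0.20 for Slc7a5. The cause was not tested. By leading transcript, 8 of the 10 members highest by summed TPM stayed among the 10 highest. Depth limits Slc1a1, Slc38a1 and Slc7a3, at 0 to 35 reads per library.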

Other observations

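Fkbp5, a glucocorticoid-responsive gene that is no amino acid carrier, was picked after its values were seen because it was high in the same 2 libraries as Slc7a5. Knockout 5 held 66.1 CPM of it and Wild-Type 1 held 98.9 CPM, against 29.6 to 56.7 CPM in the other 9 libraries. The clock gene Per2, picked in the same way, was at 8.89 and 6.51 CPM in these libraries, at 8.12 CPM in Knockout 4 and at 1.57 to 3.24 CPM in the others. Slc7a5 was at 112 CPM in Knockout 4.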
